A study of Mus musculus with 9 samples.

Results

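Foxa1, Foxa2, Foxb1, Foxb2, Foxd1, Foxd2, Foxd3, Foxe1 and Foxl2 encode forkhead transcription factors, and RING1B peaks at these 9 genes were compared between Eed+/+ and Eed-/- mouse embryonic stem cells (mESCs). Every peak that the deposited lists assign to 1 of these gene names was taken, which gave 22 of 2347 peaks in the Eed+/+ list and 12 of 1810 peaks in the Eed-/- list. Each list was called once per genotype, so the 9 genes have 1 value per genotype and no replicate error. All intervals are 95% intervals that cover counting error only, and no difference between genotypes has a test across cultures.

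Both genotypes are labelled as C57BL/6 mESCs, and the chromatin was precipitated with a monoclonal antibody to RING1B. The Eed+/+ cells are wild type, and the Eed-/- cells lack EED and with it H3K27me3. Sequencing of the Eed-/- immunoprecipitate was 4.18 times deeper, in 3 lanes that the labels number as replicates, against 1 library for Eed+/+. Input libraries (3, from wild type cells) were also made, and the CBX7 libraries of the series were not analysed here.

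RING1B is the catalytic subunit of Polycomb repressive complex 1 (PRC1), which adds ubiquitin to histone H2A. EED is a core subunit of PRC2, which methylates histone H3 at lysine 27, and CBX subunits of PRC1 can bind that mark. Developmental regulators that are silent in mESCs, among them many forkhead genes, are classical Polycomb targets and mostly have promoters in CpG islands. Forkhead proteins share a winged helix DNA-binding domain. The FOXA proteins open compacted chromatin in endoderm, FOXB1 acts in the developing brain, and FOXD1 and FOXD2 act in kidney and other mesenchyme. FOXD3 acts in neural crest and is also expressed in pluripotent cells, FOXE1 acts in the thyroid, and FOXL2 acts in ovarian granulosa cells.

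The bases just upstream of each start site are shown because Eed+/+ RING1B peaks covered all 9 of these stretches. Eed-/- peaks covered those of 7 genes, and none was called at Foxa1 or Foxl2. Each stretch is 120 bases of mm9, read in the direction of transcription and ending at the base before the first start site, with CG dinucleotides in capitals. They lie at chr12:58647109-58647228 (Foxa1, minus strand), chr9:98855906-98856025 (Foxl2, plus strand), chr4:99322869-99322988 (Foxd3, plus strand), chr4:46356361-46356480 (Foxe1, plus strand), chr4:114581504-114581623 (Foxd2, minus strand), chr13:99124080-99124199 (Foxd1, plus strand), chr2:147872706-147872825 (Foxa2, minus strand), chr19:16948321-16948440 (Foxb2, minus strand) and chr9:69608748-69608867 (Foxb1, minus strand).
Foxa1: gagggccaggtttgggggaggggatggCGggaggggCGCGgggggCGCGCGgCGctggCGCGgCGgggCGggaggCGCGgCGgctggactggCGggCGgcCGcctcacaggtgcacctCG
Foxl2: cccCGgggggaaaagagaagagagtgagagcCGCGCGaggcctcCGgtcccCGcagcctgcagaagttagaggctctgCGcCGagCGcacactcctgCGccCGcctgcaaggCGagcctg
Foxd3: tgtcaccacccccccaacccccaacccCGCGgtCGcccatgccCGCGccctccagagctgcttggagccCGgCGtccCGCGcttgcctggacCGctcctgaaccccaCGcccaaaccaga
Foxe1: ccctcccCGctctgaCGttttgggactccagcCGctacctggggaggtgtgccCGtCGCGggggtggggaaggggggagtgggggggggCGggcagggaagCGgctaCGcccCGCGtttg
Foxd2: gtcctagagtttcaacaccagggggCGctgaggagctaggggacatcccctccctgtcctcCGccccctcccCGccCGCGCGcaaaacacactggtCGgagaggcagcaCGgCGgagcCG
Foxd1: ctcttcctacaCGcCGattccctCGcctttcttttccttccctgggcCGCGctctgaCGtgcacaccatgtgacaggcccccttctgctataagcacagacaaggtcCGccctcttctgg
Foxa2: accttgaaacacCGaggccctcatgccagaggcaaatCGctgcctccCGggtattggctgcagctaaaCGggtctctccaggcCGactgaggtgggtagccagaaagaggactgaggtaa
Foxb2: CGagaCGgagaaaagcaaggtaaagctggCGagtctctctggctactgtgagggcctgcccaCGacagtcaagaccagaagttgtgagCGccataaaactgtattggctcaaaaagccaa
Foxb1: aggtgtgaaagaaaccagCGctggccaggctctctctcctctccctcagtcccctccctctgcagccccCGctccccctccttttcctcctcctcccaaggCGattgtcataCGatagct

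The 2 genes without an Eed-/- peak had the highest numbers of CG dinucleotides in these stretches. Foxa1 had the highest number, 18, and Foxl2 the next highest, 12, while the 7 genes with an Eed-/- peak had 4 to 11. Foxb1 had the lowest number, 4, and its start site carried an Eed-/- peak. The other 6 genes had between 5 (Foxa2 and Foxb2) and 11 (Foxd3 and Foxe1), and the median over 22364 protein-coding genes was 5. Of those genes, 5.68% had at least as many CG as Foxa1, 21.1% at least as many as Foxl2 and 57.3% at least as many as Foxb1. Over whole Eed+/+ peaks the median CpG observed/expected ratio was 0.628 for forkhead peaks overlapped by an Eed-/- peak and 0.515 for the rest. Over all Eed+/+ peaks these medians were 0.637 and 0.554. By this ratio the Eed+/+ peaks without an overlap had the lower median, but most of these forkhead peaks lay off the start site, unlike the stretches. The start site peaks of Foxa1 and Foxl2 had ratios of 0.774 and 0.721, within the range of the 7 other start site peaks (0.582 to 0.975). The start site of 7 genes lay inside a CpG island, and at Foxa2 and Foxd1 the island began 4 and 18 bp downstream of the start site.

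Called RING1B peaks covered the start site of all 9 genes in Eed+/+ cells and of 7 in Eed-/- cells. Of the 22 Eed+/+ peaks, 11 (50.0%, exact binomial interval 28.2 to 71.8) were overlapped by an Eed-/- peak, beside 53.1% of all Eed+/+ peaks. Of the 12 Eed-/- peaks, 11 (91.7%, interval 61.5 to 99.8) were overlapped by an Eed+/+ peak, beside 73.1% of all Eed-/- peaks. Both shares for the forkhead genes have intervals that hold the share over all peaks. These intervals treat peaks as independent, although neighbouring peaks of 1 gene lay as little as 45 bp apart (Foxd3). Foxa1 alone supplied 5 of the 11 Eed+/+ peaks without an overlap. Among Eed+/+ peaks over a protein-coding start site, 7 of 9 forkhead peaks were overlapped, beside 60.1% of all such peaks. The remaining 13 forkhead peaks lay off the start site, and 4 of them were overlapped, beside 225 of 646 Eed+/+ peaks off any protein-coding start site (34.8%).

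**Figure D1:**
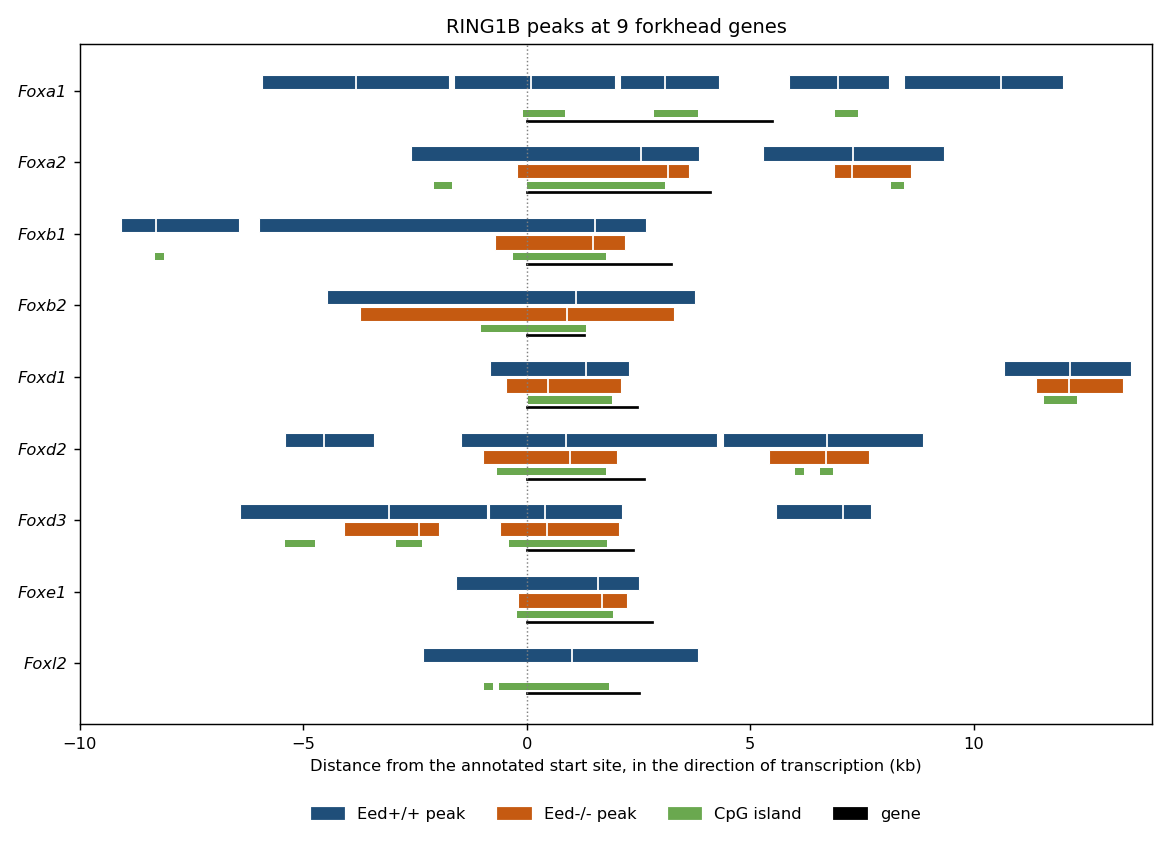
Eed+/+ peaks (blue) and Eed-/- peaks (orange) of the 9 genes by distance in kb from the annotated start site, upstream to the left, with white ticks at the peak summits, CpG islands in green and genes in black. Every orange bar shown lies within a blue bar, and Foxa1 and Foxl2 have no orange bar. An Eed+/+ peak of Foxd1, an Eed+/+ peak of Foxd2 and an Eed-/- peak of Foxb2 lie beyond the range plotted.

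The RING1B level of a peak is its tag number divided by its width in kb and scaled to 1000000 mapped tags, with no input subtracted. Each level is an average over the peak's own width, so a level ratio compares unlike intervals where the Eed-/- peak is narrower. In the 11 overlapping pairs the Eed+/+ level was between 4.43 and 16.1 and the Eed-/- level between 0.974 and 1.95. The levels of the genotypes did not overlap in these pairs. Over all 1247 pairs they did, at 1.81 to 18.0 and 0.849 to 2.92. The Eed-/- to Eed+/+ level ratio had a median of 0.145 (range 0.104 to 0.220) over the 11 pairs, beside 0.225 over all 1247 pairs. The median Eed+/+ level was 9.34 in the 11 pairs and 5.78 over all pairs. The median Eed-/- level was also higher in the 11 pairs, 1.51 beside 1.33. All 11 ratios were below 0.5, as were 97.8% of all pairs. A narrower Eed-/- peak inside the Eed+/+ peak was found in 11 of 11 forkhead pairs and in 716 of 1247 pairs overall (57.4%). The Eed+/+ peaks had a median width of 4482 bp against 2574 bp for the Eed-/- peaks, and the median ratio of the widths was 0.596, beside 0.833 over all pairs. Each of the 11 Eed+/+ summits lay inside the paired Eed-/- peak, which was not counted over all pairs. The summits of a pair were 3 to 845 bp apart (median 70.0 bp, beside 97.0 bp over all pairs). They lay within 500 bp of each other in 8 of 11 forkhead pairs, beside 952 of 1247 pairs (76.3%).

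**Figure D2:**
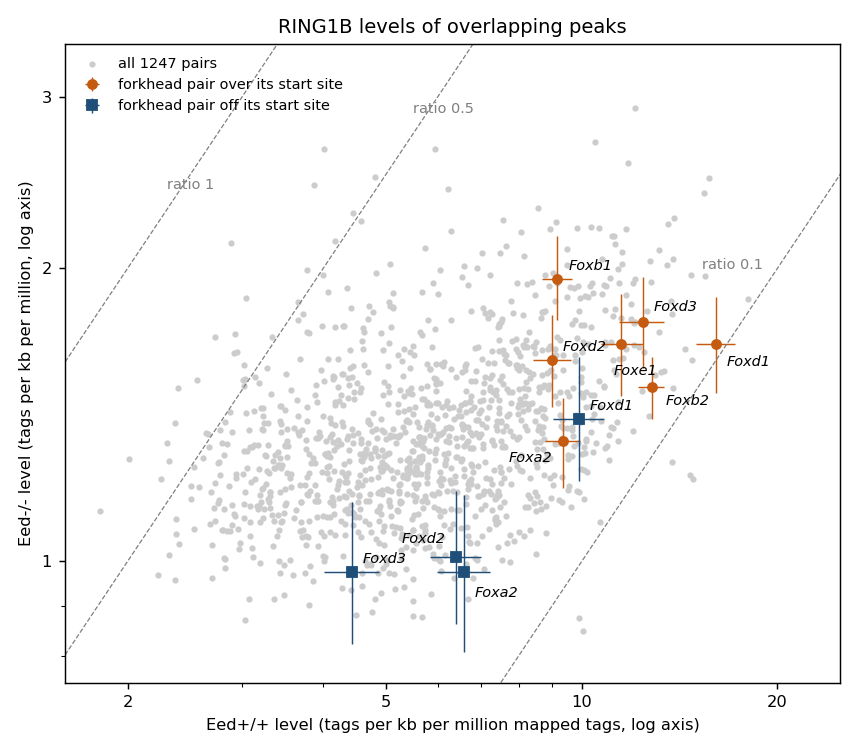
Eed-/- level against Eed+/+ level for the 11 forkhead pairs, as tags per kb scaled to 1000000 mapped tags on log axes, with 95% Poisson intervals (circles over the start site, squares off it), over all 1247 pairs in grey. Dashed lines mark ratios of 1, 0.5 and 0.1, and the forkhead pairs lie between ratios of 0.104 (Foxd1 start site) and 0.220 (Foxd3 upstream).

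Foxa2 (chromosome 2, 147868613 to 147872705, minus strand) is needed for the node, notochord, floor plate and endoderm. Its start site peak ran from 147868854 to 147875299 in Eed+/+ cells, with 1012 tags, a level of 9.34 (8.77 to 9.93) and a fold enrichment over background of 71.0. That fold enrichment was rank 4 of the 2347 Eed+/+ peaks. In Eed-/- cells the peak ran from 147869076 to 147872924, with 359 tags and a level of 1.33 (1.19 to 1.47), a ratio of 0.142 (0.126 to 0.160). The Eed-/- peak ended 219 bp upstream of the start site, whereas the Eed+/+ peak reached 2594 bp upstream. A second Eed+/+ peak, 1198 bp past the 3' end of Foxa2, from 147863368 to 147867415, covered the start site of the noncoding RNA gene 9030622O22Rik and held 448 tags at a level of 6.58. Its Eed-/- partner, from 147864109 to 147865828, held 118 tags at a level of 0.975, a ratio of 0.148, and the summits were 3 bp apart.

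Foxa1, the other FOXA gene of the set, had the most Eed+/+ peaks and no Eed-/- peak. The gene occupies 58641618 to 58647108 of chromosome 12 (minus strand). Its 5 Eed+/+ peaks lay end to end from 58635119 to 58653028 and covered 88.2% of these 17910 bp, with gaps of 108 to 1549 bp between them. Their levels, from the upstream end, were 5.30, 6.45 (start site), 10.5 (gene body), 5.86 and 3.12, from 372, 391, 393, 221 and 186 tags. By level the gene body peak was thus the highest, and its interval (9.46 to 11.6) did not meet that of the start site peak (5.83 to 7.12). By fold enrichment the order differed, with 29.6 for the gene body peak, 42.1 for the start site peak and 42.9 for the peak just past the 3' end. Of these peaks, 3 held a CpG island and the most upstream and most downstream held none. The nearest Eed-/- peak on the chromosome lay 836275 bp from the closest of them and was assigned to Pax9.

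Foxb1, which acts in the hypothalamus and spinal cord, had the highest level of the forkhead set in Eed-/- cells. The gene occupies 69605517 to 69608747 of chromosome 9 (minus strand). The Eed+/+ start site peak, from 69606088 to 69614729, was the widest of the 22 at 8642 bp and held 1332 tags at a level of 9.17 (8.68 to 9.67). In Eed-/- cells the peak, from 69606540 to 69609463, was 2924 bp wide and held 402 tags at a level of 1.95 (1.77 to 2.16), a ratio of 0.213 (0.190 to 0.239). The Eed+/+ peak went on 5266 bp further upstream than the Eed-/- peak, along the noncoding RNA gene B230323A14Rik, while the summits lay 37 bp apart. A second Eed+/+ peak further upstream, from 69615179 to 69617826, had 166 tags, a level of 3.73 and no Eed-/- partner.

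Foxb2, a close relative of Foxb1, had the largest tag number of the set in both genotypes. The gene occupies 16946844 to 16948130 of chromosome 19 (minus strand). The start site peak spanned 16944373 to 16952604 in Eed+/+ cells, where it carried 1768 tags at a level of 12.8 (12.2 to 13.4) and a fold enrichment of 66.9. In Eed-/- cells it spanned 16944824 to 16951859 and carried 748 tags at a level of 1.51 (1.40 to 1.62) and a fold enrichment of 7.69, a level ratio of 0.118 (0.108 to 0.129). At 7036 bp the Eed-/- peak kept most of the Eed+/+ width (ratio 0.855) and was the widest forkhead peak in Eed-/- cells, at rank 11 of 1810. A second Eed-/- peak, from 17029673 to 17031342, was assigned to Foxb2 but lay 81543 bp upstream and covered the start site of Prune2. It held 124 tags at a level of 1.06, had the highest FDR of the 12 Eed-/- peaks (1.86%) and was the 1 Eed-/- peak of the set that no Eed+/+ peak overlapped.

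The 3 Foxd genes each had a start site peak in both genotypes and a second overlapping pair at a distance. Foxd1 (chromosome 13, 99124200 to 99126660, plus strand) marks kidney stroma and part of the retina. Its Eed+/+ start site peak (99123377 to 99126498, 843 tags) had the highest level of the set, 16.1 at rank 3 of 2347. In Eed-/- cells the level was 1.67 (1.49 to 1.87) from 303 tags, between 99123733 and 99126306. The ratio, 0.104 (0.0911 to 0.119), was the lowest of the 11 pairs. A peak 8219 bp past the 3' end of Foxd1 (99134879 to 99137720) had a level of 9.90 in Eed+/+ cells and 1.40 in Eed-/- cells, a ratio of 0.142, with summits 22 bp apart on a CpG island of 739 bp. Another Eed+/+ peak, 33377 bp past the gene, held 184 tags at a level of 4.06 and had no Eed-/- partner.

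Foxd2 (chromosome 4, 114578885 to 114581503, minus strand) is expressed in kidney and facial mesenchyme. Its start site peak had a level of 8.99 (8.40 to 9.61) in Eed+/+ cells (114577252 to 114582968, 864 tags) and 1.61 (1.44 to 1.79) in Eed-/- cells (114579480 to 114582488, 340 tags), a ratio of 0.179. The same peaks covered the start site of the noncoding RNA gene 9130206I24Rik, which is transcribed away from Foxd2. Downstream of Foxd2, a pair over the start site of the noncoding RNA gene 9130410C08Rik had levels of 6.40 (482 tags) and 1.01 (159 tags), a ratio of 0.158. The remaining 2 Eed+/+ peaks of Foxd2, 3418 bp upstream and 61976 bp downstream of the gene, had 123 and 130 tags and no Eed-/- partner.

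Foxd3 (chromosome 4, 99322990 to 99325362, plus strand) encodes a neural crest factor. Its start site peaks were of nearly the same width, 2962 bp in Eed+/+ cells (99322155 to 99325116) and 2673 bp in Eed-/- cells (99322383 to 99325055), the highest width ratio of the set at 0.902. The level was 12.4 (11.4 to 13.4) from 616 tags in Eed+/+ cells and 1.76 (1.58 to 1.96) from 331 tags in Eed-/- cells, a ratio of 0.142. Further upstream, after a gap of 45 bp, a separate Eed+/+ peak ran from 99316565 to 99322109 across the start site of the noncoding gene Gm12688, at a level of 4.43 (413 tags). Its Eed-/- partner, from 99318909 to 99321024, had a level of 0.974 (145 tags) and did not reach that start site. This pair had the highest ratio of the 11, 0.220 (0.181 to 0.266), and the lowest Eed+/+ level among them. Its Eed-/- peak was also much narrower than the Eed+/+ peak (width ratio 0.382), which raises a ratio of averages. Scaled to the Eed+/+ depth, it held 34.7 tags beside 413. The Foxd1 start site peak, with the lowest level ratio, held 72.4 tags beside 843. A downstream Eed+/+ peak of 113 tags had a level of 3.17 and no Eed-/- partner.

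Foxe1, required for the thyroid and palate, had 1 peak in each genotype. The gene occupies 46356481 to 46359284 of chromosome 4 (plus strand). The start site peak spanned 46354896 to 46358987 in Eed+/+ cells, with 793 tags and a level of 11.5 (10.7 to 12.4), and 46356281 to 46358719 in Eed-/- cells, with 287 tags and a level of 1.67 (1.48 to 1.88). The ratio was 0.145 (0.126 to 0.166) and the summits were 89 bp apart.

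Foxl2, which maintains granulosa cell identity, had a strong Eed+/+ peak and no Eed-/- peak. The gene occupies 98856026 to 98858545 of chromosome 9 (plus strand), and the peak spanned it from 98853715 to 98859863, with 1247 tags, a level of 12.1 (11.4 to 12.7) and a fold enrichment of 56.7. Its level lay within the range of the 7 start site peaks that had an Eed-/- partner (8.99 to 16.1). Among the 1100 Eed+/+ peaks without an Eed-/- partner it ranked 4 by tags, 9 by level and 8 by fold enrichment. A peak of the antisense gene Foxl2os began further upstream and ended 57 bp before it, with 174 tags, and had no Eed-/- partner either. The nearest Eed-/- peak lay 909071 bp away.

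Start site levels in Eed+/+ cells ran, from the highest, Foxd1 (16.1), Foxb2 (12.8), Foxd3 (12.4), Foxl2 (12.1), Foxe1 (11.5), Foxa2 (9.34), Foxb1 (9.17), Foxd2 (8.99) and Foxa1 (6.45). The counting intervals of Foxb2, Foxd3, Foxl2 and Foxe1 overlapped each other, as did those of Foxa2, Foxb1 and Foxd2, so the order within each of these groups is not set by the counts. In Eed-/- cells the order was Foxb1 (1.95), Foxd3 (1.76), Foxd1 (1.67), Foxe1 (1.67), Foxd2 (1.61), Foxb2 (1.51) and Foxa2 (1.33). Foxb1 was thus below 5 of these 7 genes in Eed+/+ cells and above the other 6 in Eed-/- cells, and its interval in Eed-/- cells (1.77 to 2.16) overlapped those of Foxd3, Foxd1, Foxe1 and Foxd2. Foxb1 also had the lowest width ratio of the pairs (0.338), so its 2 levels are averages over unlike widths.

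Eed+/+ peaks with an Eed-/- partner were stronger than those without, at the forkhead genes and over the whole list. At the forkhead genes the median level was 9.34 for the 11 peaks with a partner and 4.18 for the 11 without, beside 5.78 and 4.03 over all Eed+/+ peaks. The median tag number was 793 with and 186 without a partner, beside 288 and 161 over all peaks. The ranges of the forkhead groups overlapped, since the lowest peak with a partner had a level of 4.43 and Foxl2, without one, had 12.1.

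The lists hold no tag count where no peak was called, and the lowest tag number of any listed Eed-/- peak was 101. If each of the 11 Eed+/+ peaks without a partner had kept the median ratio of 0.145 over its whole width, the Eed-/- library would hold 68.6, 74.7 and 78.9 tags at the unpaired Foxd3 peak and both unpaired Foxd2 peaks, under that number. At the unpaired Foxb1 and Foxd1 peaks it would hold 101 (after rounding) and 112 tags. At the 5 Foxa1 peaks it would hold 113 to 239 tags, and at Foxl2 757 tags. At the lowest ratio of the 11 pairs, 0.104, the Foxa1 peaks would hold 81.1 to 171 tags, with 2 of the 5 under 101. Foxl2 would hold 544 tags at that ratio. All these numbers assume the full Eed+/+ width, and both ratios come only from pairs whose Eed-/- peak passed the call. Peaks that did not pass it may have kept less, so these numbers cannot show that a call was due. The Eed-/- peaks of the pairs were narrower (median width ratio 0.596), and peaks narrowed in that way would hold fewer tags. The lowest level of any listed Eed-/- peak, 0.849, is 0.0704 of the Foxl2 level, and the lowest ratio of any of the 1247 pairs was 0.0819. Whether RING1B is absent at Foxa1 and Foxl2 in Eed-/- cells, or present below the threshold of the peak call, was not tested.

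**Figure D3:**
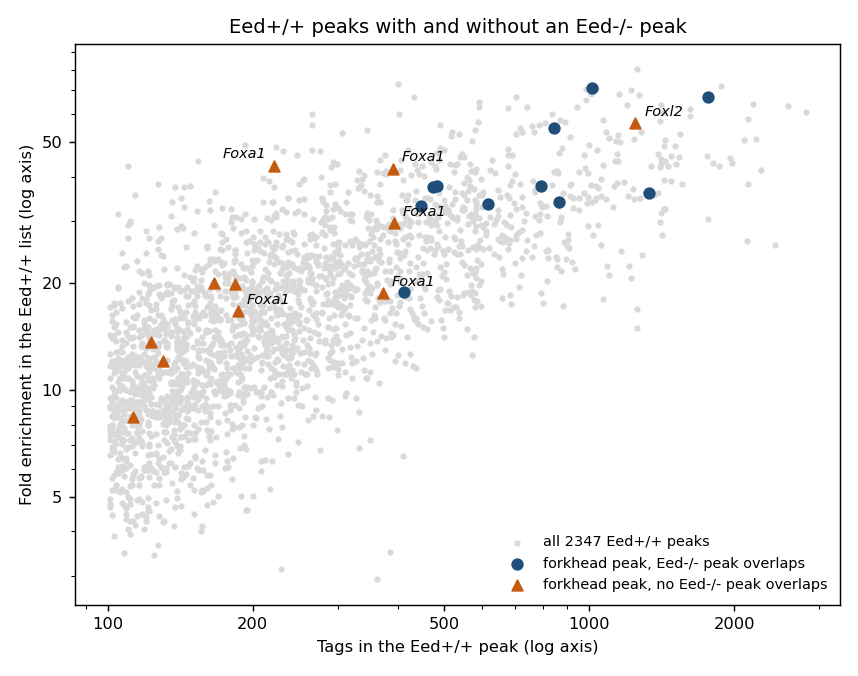
Fold enrichment against tag number of the Eed+/+ peaks on log axes, with all 2347 peaks in grey, the 11 forkhead peaks that an Eed-/- peak overlaps in blue and the 11 that none overlaps as orange triangles. The triangle of Foxl2 (1247 tags, fold enrichment 56.7) lies among the strongest forkhead peaks, and the triangles without a name lie at 113 to 184 tags.

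Peaks of the forkhead genes covered 89377 bp in Eed+/+ cells and 34196 bp in Eed-/- cells, a ratio of 0.383, beside 0.589 over all peaks. Of the Eed-/- bases, 32526 bp lay inside Eed+/+ peaks. By gene the ratio ran from 0 at Foxa1 and Foxl2 through 0.259 at Foxb1, 0.373 at Foxd2, 0.451 at Foxd3, 0.523 at Foxd1, 0.531 at Foxa2 and 0.596 at Foxe1 to 1.06 at Foxb2. The value for Foxb2 includes the peak at Prune2. The 11 peaks without a partner made up 37.2% of the Eed+/+ bases.

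**Figure D4:**
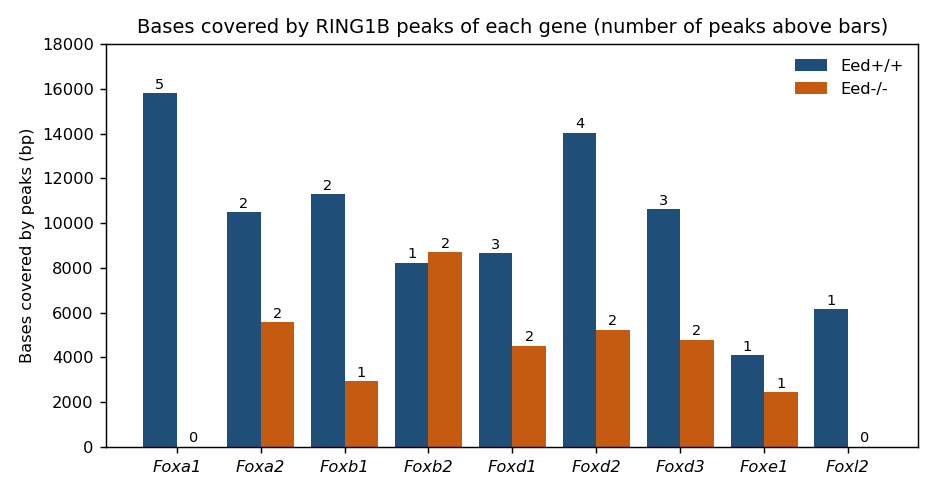
Bases covered by the Eed+/+ peaks (blue) and Eed-/- peaks (orange) of each gene, with the number of peaks above each bar. Foxa1 has 15799 bp in 5 Eed+/+ peaks and none in Eed-/- cells, and Foxb2 is the 1 gene with more bases in Eed-/- cells (8706 against 8232 bp).

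All 12 Eed-/- peaks and 18 of the 22 Eed+/+ peaks (81.8%) overlapped a CpG island, beside 95.2% and 94.0% of all peaks. The 4 Eed+/+ peaks off islands (2 at Foxa1, 1 each at Foxd2 and Foxd3) had no Eed-/- partner, and over the whole list 7 of 141 such peaks had one. Within the pairs, the narrower Eed-/- peaks lay more on islands. The median share of peak bases in an island was 28.3% in the Eed+/+ and 70.9% in the Eed-/- peaks of the 11 pairs. Over all pairs the medians were 40.9% and 49.9%. The share was higher in the Eed-/- peak of each of the 11 pairs. Pairs with such a rise were not counted over the whole list. At the Foxa2 start site the share went from 54.2 to 80.3%, at Foxd2 from 42.7 to 81.2% and at Foxe1 from 52.5 to 87.5%. At Foxb2 it went from 28.3 to 33.2%, with an Eed-/- peak of 7036 bp over an island of 2333 bp. The median GC content of the pairs was 54.7% for the Eed+/+ and 58.6% for the Eed-/- peaks, beside 59.2 and 61.0% over all pairs.

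**Figure D5:**
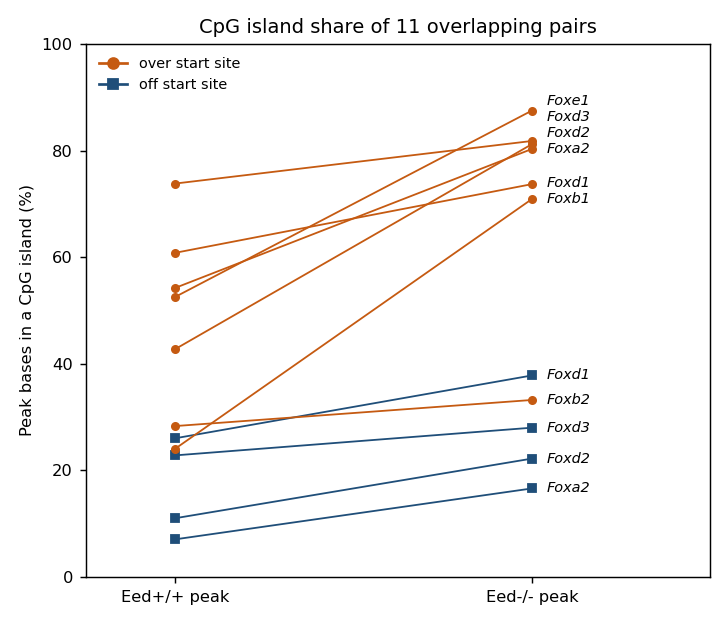
Share of peak bases inside a CpG island for the 11 overlapping pairs, each line joining the Eed+/+ peak to its Eed-/- peak, with pairs over the start site of the gene in orange and others in blue. All 11 lines rise, and 6 of the 7 pairs over a start site end at 70.9% or more.

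The fold enrichment given by the authors was lower in the Eed-/- peak of each pair, but did not order the peaks as the level did. Its median over the 11 pairs was 37.3 for Eed+/+ and 6.07 for Eed-/- peaks, and the ratio ran from 0.0767 at the Foxa2 start site to 0.189 at Foxb1. The lowest level ratio was instead that of the Foxd1 start site, whose fold enrichment ratio was 0.130. The library that served as background is not given in the sources used here, so these ratios are set side by side only. The FDR of the 22 Eed+/+ peaks was at most 0.04%, while that of the 12 Eed-/- peaks was between 0.44 and 1.86%. At the Eed+/+ depth, only the Eed-/- peak of Foxb2 would hold more than 100 tags (179), and the next highest, that of Foxb1, would hold 96.1.

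In other forkhead genes and in genes that act with these factors the overlapped share lay on either side of that of the 9 genes, and the median level ratio of each list was above 0.145. In the paired clusters of Foxc, Foxf, Foxq1 and Foxl1 genes, 6 of 12 Eed+/+ peaks (50.0%) were overlapped and the median ratio of the pairs was 0.156. In the remaining forkhead genes 8 of 11 (72.7%) were overlapped, at a median ratio of 0.202. For endoderm and midline partners of the FOXA factors, such as Gata and Sox genes, the overlap was 10 of 21 peaks (47.6%) and the median ratio 0.153. For neural crest partners of FOXD3 it was 6 of 17 (35.3%) and 0.155, for thyroid partners of FOXE1 3 of 7 (42.9%) and 0.153, and for gonad partners of FOXL2 8 of 19 (42.1%) and 0.186. GATA factors had 5 of 10 (50.0%) and 0.181, and T-box genes 10 of 24 (41.7%) and 0.206. The lists share some genes, and the differences between them were not tested.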

How the data were processed

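The authors aligned single-end tags to mm9 with bowtie, dropping tags that mapped to several places, and made 1 MACS call of RING1B peaks per genotype, at an FDR under 2% and more than 100 tags. Tool versions and the MACS control library were not given in the sources used here. The study states 16814546 mapped tags for Eed+/+ and 70343706 for Eed-/- RING1B. The deposited lists give raw tag counts, fold enrichment as a ratio over background, FDR in percent, a score derived from the p-value, the summit and the nearest gene, which the authors assigned with CisGenome and which need not be the regulated gene. Columns with the authors' own overlaps between lists were not used.

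An overlap needed 1 shared bp or more, and each Eed+/+ peak was paired with the Eed-/- peak that shared most bases with it. Shares carry exact (Clopper-Pearson) intervals, levels exact Poisson intervals, and level ratios intervals from the exact binomial share of the tags, all at 95%. There is 1 list per genotype, so no test was run. Genes and start sites came from GENCODE M1 on NCBIM37, the same build as mm9. Of 3966 peaks whose gene name is in that annotation, 87.4% had a deposited distance that put exon 1 within 100 bp of an annotated start site, and at Foxe1 and Foxb2 it lay 584 and 190 bp from it. Where they differ, the printed sequence ends before the more upstream of the 2. CpG islands came from a running score (17 for CG, −1 otherwise), with minima of 200 bp in length, 50% in GC content and 0.6 in the CpG observed/expected ratio, which gave 23583 islands. The overlap code and the island search were tested on simulated data. Every peak of the 9 genes is given. The genes and comparison lists were chosen with earlier results of these data known. Python 3.11.15, numpy 2.4.6, scipy 1.17.1 and pysam were used.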

Additional observations from a re-analysis of the deposited data

How the results depend on the processing

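With 1 list per genotype, no replicate could be left out. No paired analysis was possible because no result comes from a test. The median level ratio of 0.145 was between 0.142 and 0.163 under 4 alternatives (reciprocal overlap of 50%, fold enrichment in place of the level, summed partners, peaks within 10 kb of a gene), and was 0.607 without scaling to mapped tags, by construction of the 4.18 times deeper library. With an overlap of at least 50% of both peaks, 7 of 22 Eed+/+ peaks and 7 of 12 Eed-/- peaks were overlapped, in place of 11 each. At an FDR of 1% or less these counts were 5 of 22 and 5 of 5, and the ratio of covered bases was 0.163 in place of 0.383. With only Eed-/- peaks that would exceed 100 tags at the Eed+/+ depth, 1 of 22 and 1 of 1 were overlapped. Of the 20 alternatives, 12 stayed within 1.5 times of the reported value or, for the median ratio, between 0.118 and 0.213, the ratios at ranks 2 and 10 of the 11 pairs. Among these were islands of at least 500 bp (14 of 22 and 9 of 12 peaks on an island) and the number of genes with an overlapping pair, which was 5 to 7. At the median ratio and the full Eed+/+ width, the unpaired Foxd3 peak and both unpaired Foxd2 peaks would fall under the lowest listed Eed-/- tag number. The unpaired Foxb1 peak would lie at that number after rounding, and the other unpaired peaks above it. The median ratio comes only from pairs whose Eed-/- peak passed the call and may be too high for unpaired peaks. The part of the FDR limit of 2% in the absence of Eed-/- partners was not tested. An Eed-/- level at Foxa1 and Foxl2 cannot be given from peak lists alone.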
